A study of Mus musculus with 11 samples.

Results

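The genes described here are 10 genes of innate defence whose products are secreted into milk or carried by cells and fluids of the mammary gland. They are Ltf, Lcn2, Lpo, Cd14, Lbp, Saa1, Saa2, Saa3, S100a8 and S100a9. They are named as a set by their role in defence, and the rule that names them uses no measured value. The genes were nonetheless chosen with earlier results of these data known. They are 10 of the 22196 genes obtained from the deposited transcript tables. All 10 had reads, and 9 had enough to enter the test across genes. The exception was S100a9, with 102 reads over all libraries.

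RNA was sequenced in 11 libraries from inguinal mammary glands of mice with a deletion of Tsc1 in adipocytes (Knockout, n = 6) and of mice without the deletion (Wild-Type, n = 5). Both groups carried floxed Tsc1 alleles (Tsc1-fl/fl). Knockout mice also had 1 copy of a Cre transgene under the promoter of Adipoq, the adiponectin gene, which is active in adipocytes (Adipoq-Cre-Tg/+), and the animals labelled Wild-Type had none (Adipoq-Cre-+/+). Tsc1 is a subunit of the complex that restrains the growth-promoting kinase mTORC1. Glands were taken 16 days after delivery from animals that had milk and normal chow at will, and the age label of every sample reads PND16.5. The labels name no litter, batch or collection date, and nothing in them says outright that the animals were lactating.

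Milk carries an innate defence that acts before antibodies and immune cells do. Lactoferrin and lipocalin 2 withhold iron from bacteria, lactoperoxidase makes oxidants that damage them, and CD14 and LPS-binding protein hand bacterial lipopolysaccharide to the receptor TLR4. Serum amyloid A proteins and the S100A8 and S100A9 pair, which together form calprotectin, rise in inflammation, in the mammary epithelium as well as in liver or neutrophils. The data are RNA levels and say nothing of the proteins in the milk itself.

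Each library had between 25758077 and 37820270 estimated reads in genes. Levels are given as CPM, reads scaled to a common library total after TMM correction for library composition. Genes are compared with each other only as TPM, which accounts for transcript length but carries no TMM correction. Fold changes are log2, Knockout minus Wild-Type, with their standard error (SE), from edgeR's quasi-likelihood test, and the threshold is an adjusted p of 0.05 over all 12716 genes tested. Tsc1 itself, which other gland cells also transcribe, averaged 10.1 CPM in Knockout against 10.7 CPM in Wild-Type (log2 fold change -0.09 ± 0.11 SE, adjusted p in edgeR = 0.772). These are whole glands, so a lower share of the cells that make a transcript and less of it per cell cannot be told apart. Library 1 of the Knockout group stood apart in markers of skeletal muscle, which summed to 2020 CPM there and to between 1.60 and 171 CPM in the other 10 libraries.

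None of the 9 tested genes passed the threshold in either direction, against 7 of all 12716 genes (0.055%, with 0.0472% higher in Knockout). In DESeq2's test also none of them passed, against 1.15% of all genes. Ltf and S100a8 had an unadjusted p under 0.05, 2 of 9 against 12.4% of all genes. Both had the higher mean in Knockout, and genes with such a p and a higher level in Knockout made up 6.31% of all genes tested. The log2 fold change was above 0 for 7 of the 9, against 48.3% of all genes, and their median was 0.38 against -0.01 over all genes. For 0 of the 9 were the 2 groups free of overlap, which held for 1.32% of all genes. The 10 genes together took 0.400% ± 0.153 of the reads in Knockout (SD, n = 6), against 0.242% ± 0.0675 in Wild-Type (SD, n = 5). These shares carry no TMM correction, and they overlapped, at 0.235% to 0.656% in Knockout and 0.181% to 0.356% in Wild-Type. Ltf with Lcn2 made up between 81.9% and 92.4% of the reads of the 10 genes.

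**Figure D1:**
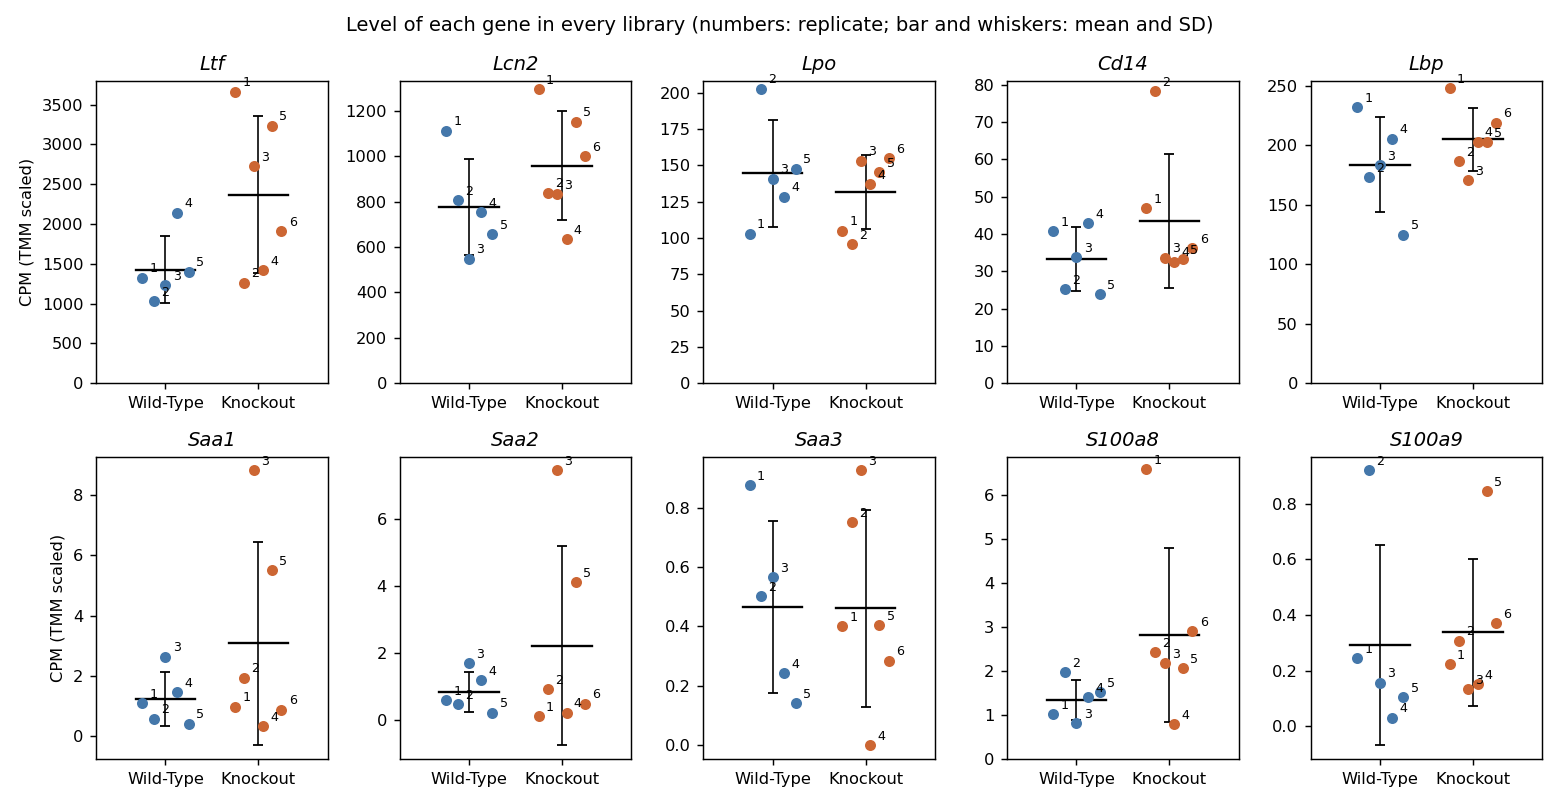
CPM of each of the 10 genes in Wild-Type (blue, n = 5) and Knockout (orange, n = 6) glands on a linear axis. Points are libraries numbered by replicate, and bars with whiskers are the mean and SD. The groups overlap for every gene, with 3 of 6 Knockout libraries above the highest Wild-Type library for Ltf and 5 of 6 for S100a8.

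The serum amyloid A genes lie side by side on chromosome 7, and Saa1 and Saa2 are near copies of each other. This bears on every value given for them, since reads from shared stretches cannot be assigned by sequence. The coding sequences of Saa1 and Saa2 are both 366 bases long and differ at 18 bases with no gaps, so they are 95.1% identical. Coding bases 70 to 189 hold 12 of the 18 differences and are shown because they are the stretch by which reads of the pair can best be told apart. They are from GENCODE M21, 5′ to 3′, with capitals for the bases that differ between the 2 genes.
Saa1 coding: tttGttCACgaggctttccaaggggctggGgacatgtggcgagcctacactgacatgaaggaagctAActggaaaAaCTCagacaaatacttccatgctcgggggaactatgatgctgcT
Saa2 coding: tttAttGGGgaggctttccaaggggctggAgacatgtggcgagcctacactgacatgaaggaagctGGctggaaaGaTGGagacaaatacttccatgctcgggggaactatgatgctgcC

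The likeness goes on ahead of the genes, which are transcribed away from each other. The 250 bases upstream of the RefSeq start are 94.8% identical between Saa1 and Saa2, with 11 substitutions and 2 gap bases. Saa3 is less alike, with 75.9% identity to Saa1 in the coding sequence and 48.5% upstream. The bases from 250 to 51 before the start are shown for the pair, because Saa1 and Saa2 are, of the pairs compared, the one whose levels moved together most closely across libraries. They are from RefSeq on GRCm38.p6, chr7:46743031-46743230 on the minus strand for Saa1 and chr7:46751583-46751782 on the plus strand for Saa2. Capitals again mark bases that differ or have no partner in the other gene.
Saa1 upstream: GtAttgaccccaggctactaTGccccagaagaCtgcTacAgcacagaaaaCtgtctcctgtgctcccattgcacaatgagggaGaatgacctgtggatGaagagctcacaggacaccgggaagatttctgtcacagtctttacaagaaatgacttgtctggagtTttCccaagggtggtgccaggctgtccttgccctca
Saa2 upstream: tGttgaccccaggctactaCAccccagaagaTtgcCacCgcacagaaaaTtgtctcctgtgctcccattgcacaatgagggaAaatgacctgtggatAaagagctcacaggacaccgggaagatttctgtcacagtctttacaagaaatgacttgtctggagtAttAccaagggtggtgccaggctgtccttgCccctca

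Over the 2 genotypes together the order of the transcripts by mean TPM (± SD, n = 11) was led by Lcn2 at 863 ± 327 and Ltf at 393 ± 234. Lbp followed at 78.0 ± 27.0, Lpo at 26.4 ± 4.98 and Cd14 at 16.8 ± 8.44. S100a8 was at 16.3 ± 16.1, Saa1 at 8.17 ± 9.47, Saa2 at 6.32 ± 8.94, Saa3 at 1.73 ± 1.04 and S100a9 at 1.36 ± 1.22. The first 3 steps of this order were the same in 11 of 11 libraries, and Lpo exceeded Cd14 in 10 of 11. Cd14 exceeded S100a8 in 5 of 11 libraries and Saa3 exceeded S100a9 in 7 of 11, so neither of these neighbours is ordered beyond its spread. The range of levels thus ran from 2 abundant iron-withholding transcripts to Saa3 and S100a9, which stood near the lower limit of detection.

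Ltf (ENSMUSG00000032496, GRCm38 chr9:111019271-111042767, plus strand) encodes lactoferrin, the iron-binding glycoprotein of milk and of neutrophil granules. In Wild-Type libraries 1 to 5 its level was 1326, 1031, 1235, 2143 and 1401 CPM. In Knockout libraries 1 to 6 it was 3663, 1264, 2725, 1416, 3235 and 1908 CPM. Knockout libraries 1, 3 and 5 were above every Wild-Type library, while the other 3 lay within the Wild-Type range. The means were 2369 ± 989 CPM (SD, n = 6) and 1427 ± 424 CPM (SD, n = 5). This log2 fold change of 0.73 ± 0.30 (SE) did not pass the test (adjusted p in edgeR = 0.36). Without Knockout library 1 it was 0.57, and without Wild-Type library 4, the highest of its group, it was 0.93.

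Lcn2 (ENSMUSG00000026822, chr2:32384633-32388252, minus strand) encodes lipocalin 2, which binds the siderophores bacteria release to gather iron. Wild-Type libraries 1 to 5 had 1111, 807, 548, 754 and 656 CPM. Knockout libraries 1 to 6 had 1293, 838, 832, 633, 1151 and 999 CPM. Libraries 1 and 5 of Knockout were above the highest Wild-Type library, the same libraries that had the highest Ltf. The means were 958 ± 240 CPM (SD, n = 6) and 775 ± 212 CPM (SD, n = 5), and Lcn2 had a log2 difference of 0.30 ± 0.20 (SE, adjusted p in edgeR = 0.566). Per length, Lcn2 was above Ltf in every library, by a TPM ratio between 1.56 and 4.21 with a median of 2.18. Its reads were split between Lcn2-201 (54.7% to 60.1% of them) and Lcn2-206 (39.9% to 45.3%), whereas at least 99.96% of the Ltf reads were given to Ltf-201.

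Ltf and Lcn2 are also granule genes of neutrophils, so the defining neutrophil genes are given beside them. Over all 11 libraries Ly6g had 1 read, Mpo 4, Ngp 3, Camp 4 and Retnlg 9, which makes 21 reads for 5 genes that mature or maturing neutrophils transcribe strongly. The 12 neutrophil markers listed summed to between 2.86 and 3.82 CPM for Knockout and between 3.05 and 4.30 CPM for Wild-Type. Of these, 3 could be tested and 0 passed, with the smallest p for Csf3r, the receptor of the neutrophil growth factor G-CSF (log2 fold change -0.34, adjusted p in edgeR = 0.592).

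Lpo (ENSMUSG00000009356, chr11:87806428-87828289, minus strand) encodes lactoperoxidase, the haem enzyme that oxidises thiocyanate with hydrogen peroxide. Wild-Type libraries 1 to 5 had 103, 203, 141, 128 and 148 CPM, and Knockout libraries had between 95.8 and 155 CPM with a median of 141. The highest library was Wild-Type 2 and the lowest Knockout 2, and the other libraries of the groups were interleaved. The Knockout mean was 132 ± 25.3 CPM (SD, n = 6) and the Wild-Type mean 144 ± 36.7 CPM (SD, n = 5). For Lpo this made a log2 fold change of -0.13 ± 0.17 (SE, adjusted p in edgeR = 0.793), which became 0.02 without Wild-Type library 2. By TPM the Knockout mean was the higher, at 27.3 ± 3.92 (SD, n = 6) against 25.4 ± 6.34 (SD, n = 5). The enzymes that could supply its peroxide were low or did not pass: of 10 listed genes 5 could be tested, 0 passed, and Duoxa2, the maturation factor of the oxidase Duox2, had no read. Cyba, a membrane subunit shared by several NADPH oxidases, had the smallest p among them (log2 fold change -0.23, adjusted p in edgeR = 0.674).

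Cd14 (ENSMUSG00000051439, chr18:36725067-36726798, minus strand) encodes the co-receptor that passes lipopolysaccharide to TLR4 and is found on macrophages and, in soluble form, in milk. Wild-Type libraries 1 to 5 had 40.8, 25.1, 33.7, 42.9 and 23.9 CPM. Knockout libraries 1 to 6 had 47.0, 78.3, 33.7, 32.6, 33.3 and 36.1 CPM. Library 2 of Knockout was far above the others of its group, and 4 of the 6 Knockout libraries lay inside the Wild-Type range. Cd14 thus had a log2 fold change of 0.38 ± 0.26 (SE, adjusted p in edgeR = 0.569), and without Knockout library 2 it was 0.14. In that library the 8 keratinocyte markers summed to 158 CPM, against 76.4 to 96.0 CPM in the other Knockout libraries, and the part of this in the Cd14 value was not tested. Most of that sum, 137 CPM, was Krt5 and Krt14, keratins of basal cells that mammary myoepithelium also makes. The other 6 markers, split off after the values were seen, summed to 21.2 CPM there and to at most 6.61 CPM in the other Knockout libraries. The 10 macrophage and monocyte markers overlapped between groups, with 76.5 to 123 CPM for Knockout and 90.4 to 122 CPM for Wild-Type.

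Lbp (ENSMUSG00000016024, chr2:158306493-158332852, plus strand) encodes LPS-binding protein, the carrier that extracts lipopolysaccharide from bacterial membranes and delivers it to CD14. On the CPM scale it varied least among the 10 genes between its lowest and highest library. Wild-Type libraries 1 to 5 had 232, 173, 183, 206 and 125 CPM, and Knockout libraries had between 171 and 248 CPM with a median of 203. Only Knockout library 1 exceeded the highest Wild-Type library. Lbp had a log2 fold change of 0.16 ± 0.14 (SE, adjusted p in edgeR = 0.682), which was 0.30 ± 0.15 (SE, adjusted p = 0.486) when each gene's mean transcript length per library entered the fit. Without Wild-Type library 5, the lowest of the 11, it was 0.04.

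Among the other genes of lipopolysaccharide sensing through TLR4, 18 of 19 could be tested and 0 passed, with 9 above and 9 below 0 and a median log2 fold change of -0.01. Traf6, a ubiquitin ligase downstream of the receptor, had the smallest p (log2 fold change 0.43 ± 0.15 SE, adjusted p in edgeR = 0.31). Tlr4 itself was at 12.4 ± 1.38 CPM in Knockout (SD, n = 6), against 10.9 ± 1.06 CPM in Wild-Type (SD, n = 5). Of a list of 19 receptors, binding partners and family relatives of the 10 gene products, 8 of them other S100 genes, 15 could be tested and 0 passed, with the smallest p for Pltp, a phospholipid carrier related to Lbp (log2 fold change 0.28, adjusted p in edgeR = 0.388).

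**Figure D2:**
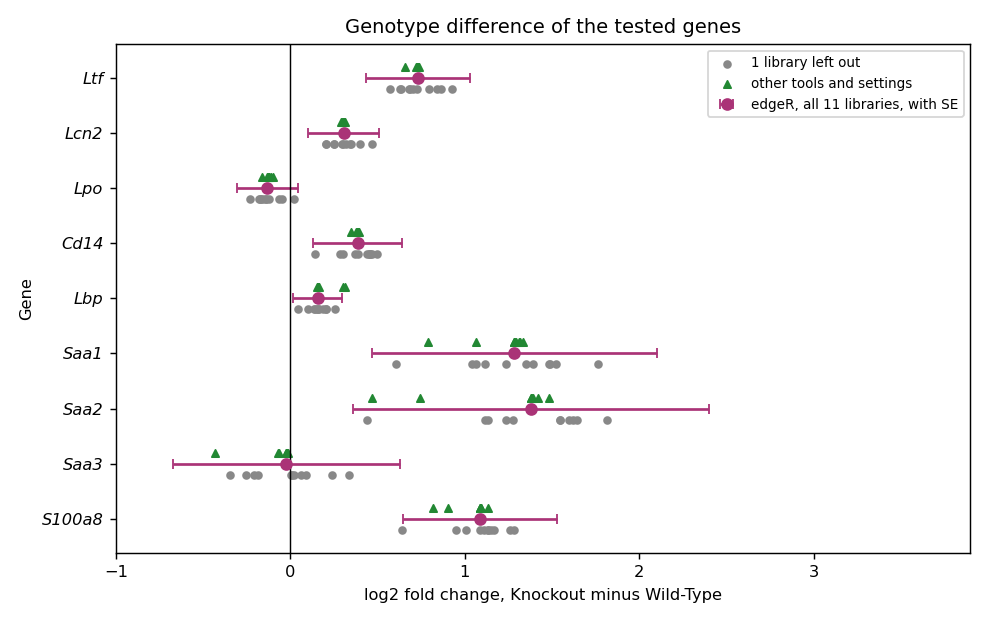
Log2 fold change (Knockout minus Wild-Type) of the 9 tested genes. Purple points with bars are the edgeR values with their SE over 11 libraries, grey points leave out 1 library each and green triangles are other tools and settings. Saa1, Saa2 and Saa3 spread most, and the grey points lie on both sides of 0 for Saa3 and Lpo.

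Saa1 (ENSMUSG00000074115, chr7:46740497-46742980, minus strand) and Saa2 (ENSMUSG00000057465, chr7:46751790-46754313, plus strand) encode the acute-phase forms of serum amyloid A, apolipoproteins that liver makes in inflammation. In Wild-Type libraries 1 to 5 Saa1 was at 1.09, 0.585, 2.64, 1.46 and 0.421 CPM. In Knockout libraries 1 to 6 it was at 0.977, 1.94, 8.82, 0.331, 5.51 and 0.882 CPM. Knockout libraries 3 and 5 were above every other library, and Knockout library 4 was the lowest of the 11. The log2 fold change was 1.28 ± 0.82 (SE, adjusted p in edgeR = 0.547). It was 0.61 without Knockout library 3 and 0.79 with limma on the authors' normalized table. These values rest on 11 to 267 reads per library.

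For Saa2, Wild-Type libraries 1 to 5 had 0.595, 0.459, 1.70, 1.18 and 0.211 CPM. Knockout libraries 1 to 6 had 0.111, 0.921, 7.46, 0.210, 4.11 and 0.484 CPM. The same Knockout libraries 3 and 5 were highest, and the span from the lowest to the highest library was 67.2-fold, against 26.7-fold for Saa1. The log2 fold change was 1.38 ± 1.02 (SE, adjusted p in edgeR = 0.609). It was 0.44 without Knockout library 3, 0.47 with limma on the authors' normalized table and 0.74 with a block for replicate number. With the reads of Saa1 and Saa2 summed into 1 gene it was 1.33 ± 0.89 (SE, adjusted p in edgeR = 0.571), between the values of the 2 genes fitted apart.

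The split between the copies was even across most libraries. Saa2 took between 32.1% and 45.8% of the Saa1 and Saa2 reads in 10 libraries. In Knockout library 1 it took 10.2% (95% Wilson interval 4.44% to 21.8%, 5 of 49 reads). Intervals cover counting error only. Of the 31-base words in their coding sequences, 40.2% of those of Saa1 and 35.1% of those of Saa2 also occur in another member of the cluster, against 8.93% for Saa3 and 0 for the other 7 genes.

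Saa3 (ENSMUSG00000040026, chr7:46711998-46715700, minus strand) encodes a form made largely outside the liver, in macrophages, adipose tissue and epithelia, the mammary gland among them. It had between 4 and 25 reads in the Wild-Type libraries, at 0.876, 0.501, 0.565, 0.243 and 0.140 CPM for libraries 1 to 5. In Knockout libraries it ranged up to 0.925 CPM with a median of 0.402, and library 4 had 0 reads, which allows up to 0.0902 CPM. The groups overlapped over nearly their whole range. Knockout averaged 0.461 ± 0.332 CPM (SD, n = 6) and Wild-Type 0.465 ± 0.289 CPM (SD, n = 5), which differ by a log2 fold change of -0.02 ± 0.65 (SE, adjusted p in edgeR = 0.993).

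Of the 19 listed genes that control the acute phase through IL-6, IL-1 and STAT3, 14 could be tested and 0 passed. Il6st, the signalling subunit gp130 of the IL-6 receptor family, had the smallest p (log2 fold change 0.24, adjusted p in edgeR = 0.396). Of 14 other acute-phase proteins 9 could be tested and 0 passed, with 7 of the 9 above 0 and a median log2 fold change of 0.41. The smallest p was that of a gene below 0, Serpina3g, a serine protease inhibitor (log2 fold change -0.61, adjusted p in edgeR = 0.396). Lrg1, a secreted glycoprotein of the acute phase, was at 45.5 ± 25.9 CPM in Knockout (SD, n = 6), against 22.5 ± 10.9 CPM in Wild-Type (SD, n = 5), or 1.02 ± 0.46 as a log2 fold change (SE, adjusted p in edgeR = 0.408). Orm1, an acute-phase carrier protein named after its values were seen, had 95.9 and 98.7 CPM in Knockout libraries 3 and 5. These are the libraries highest in Saa1 and Saa2. Orm1 had 67.4 CPM in Wild-Type library 1 and between 27.2 and 43.8 CPM in the other 8. Not every gene of this list peaked in Knockout libraries 3 or 5. Orm2 was highest in Knockout library 5 (7.82 CPM). Cp was highest in Wild-Type library 3 (215 CPM), Hp in Knockout library 2 (15.2 CPM) and Lrg1 in Knockout library 1 (86.9 CPM).

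S100a8 (ENSMUSG00000056054, chr3:90668978-90670035, plus strand) and S100a9 (ENSMUSG00000056071, chr3:90692632-90695721, minus strand) encode the subunits of calprotectin, which sequesters zinc and manganese and is abundant in neutrophils. S100a8 in Wild-Type libraries 1 to 5 was at 1.02, 1.96, 0.817, 1.40 and 1.51 CPM. In Knockout libraries 1 to 6 it was at 6.57, 2.42, 2.18, 0.782, 2.06 and 2.90 CPM. Of the 6 Knockout libraries 5 were above the highest Wild-Type library, while library 4 was below the lowest. The means were 2.82 ± 1.97 CPM (SD, n = 6) and 1.34 ± 0.447 CPM (SD, n = 5), and S100a8 gave a log2 fold change of 1.09 ± 0.44 (SE, adjusted p in edgeR = 0.36). Without Knockout library 1, which had 296 of the 808 reads, it was 0.64.

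The partner gene was lower still and could not enter the test. S100a9 had between 1 and 23 reads per library, at 0.245, 0.919, 0.157, 0.0304 and 0.105 CPM in Wild-Type libraries 1 to 5. Knockout libraries 1 to 6 had 0.222, 0.307, 0.132, 0.150, 0.844 and 0.370 CPM. The highest library was Wild-Type 2 and the next Knockout 5, and every Knockout library lay within the Wild-Type range. Fitted without the filter on low counts the S100a9 difference was 0.24 on the log2 scale (adjusted p in edgeR = 0.92). The ratio of S100a8 to S100a9 by TPM ran from 3.39 in Wild-Type library 2 to 71.2 in Wild-Type library 4, with a median of 12.5. The 2 coding sequences are 49.6% identical and share no 31-base word.

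**Figure D3:**
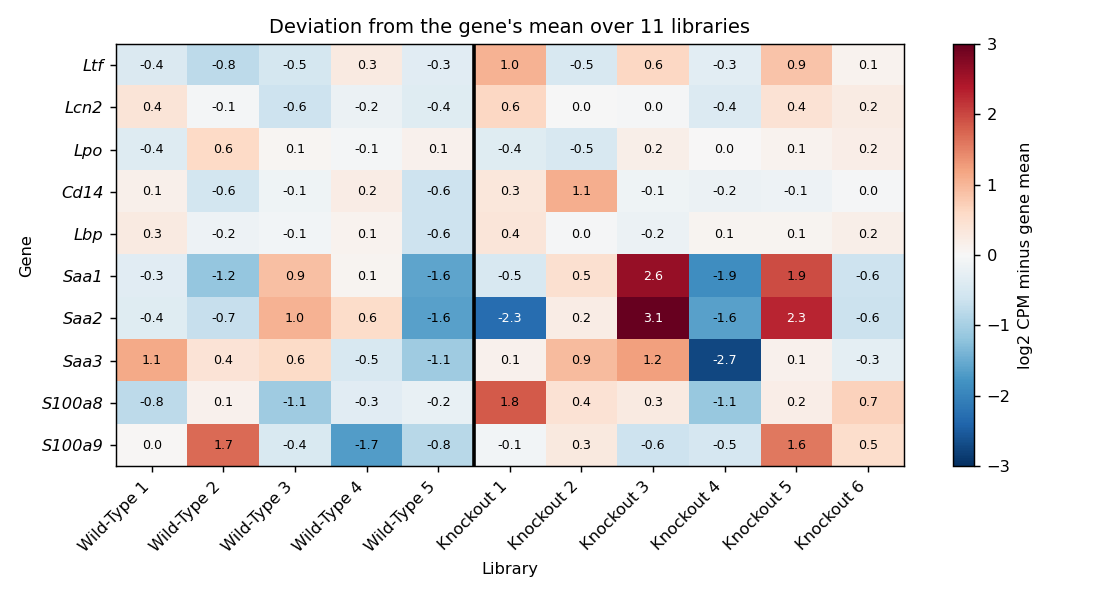
Log2 CPM of each gene (rows) in each library (columns) minus the gene's mean over 11 libraries, as colour and number; the vertical line parts Wild-Type (left) from Knockout (right). Saa1 and Saa2 are high together in Knockout libraries 3 and 5, Cd14 is high in Knockout library 2 and S100a8 in Knockout library 1.

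The genes varied more between libraries of the same genotype than most genes did. The median residual SD on the log2 scale was 0.51 for the 9 tested genes and 0.22 over all tested genes. Saa2 had a larger SD than 99.2% of tested genes, Saa1 than 98.4%, Saa3 than 97.7% and S100a8 than 94.8%. Ltf stood at 88.0%, Cd14 at 82.2%, Lcn2 at 74.9%, Lpo at 67.8% and Lbp at 57.2%. The Saa genes and S100a8 also had few reads, at most 296 in any library, whereas Ltf had at least 24679 in every library.

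Whether genes of related role moved together was asked over the 11 libraries for 6 pairs, by correlation of log2 CPM with two-sided permutation tests and Benjamini-Hochberg adjustment over the pairs. Saa1 and Saa2 rose and fell together (Pearson r = 0.926, permutation p = 0.00018, adjusted 0.00108; Spearman rho = 0.90, adjusted permutation p = 0.0036). Without Knockout libraries 3 and 5, the 2 farthest from the median of Saa1, r was 0.784 (exact permutation test, adjusted p = 0.0401) and rho 0.817 (exact permutation test, adjusted p = 0.0646). Reads of shared sequence may be divided between the copies, so the 2 levels are not fully separate measurements. Saa1 and Saa3 had r = 0.649 (permutation test, adjusted p = 0.0424) and rho = 0.70 (permutation test, adjusted p = 0.0604). Without the same 2 libraries r was 0.716 (exact permutation test, adjusted p = 0.051).

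The other 4 pairs did not pass on the CPM scale. Ltf and Lcn2 had r = 0.610 (permutation test, adjusted p = 0.101) and rho = 0.527, and without Knockout libraries 1 and 5 r was 0.199, so on this scale the relation rested on those 2 libraries. With TPM in place of CPM r was 0.771 for Ltf and Lcn2 (permutation test, adjusted p = 0.0125) and 0.778 for Cd14 and Lbp (permutation test, adjusted p = 0.0125), both past the threshold. TPM carries no TMM correction, and the part of this in the higher r was not tested. Cd14 and Lbp, which act in sequence on lipopolysaccharide, had r = 0.495 (permutation test, adjusted p = 0.141) and rho = 0.636. Without Knockout library 2 and Wild-Type library 5 their r was 0.790 (exact permutation test, adjusted p = 0.0401) and rho 0.75 (exact permutation test, adjusted p = 0.0765). Ltf and Lpo had r = -0.16 (permutation test, adjusted p = 0.64), which turned to 0.330 with TPM, and Lcn2 and Saa3 had r = 0.382 (permutation test, adjusted p = 0.302). With the genotype means taken off, r was 0.936 for Saa1 and Saa2, 0.710 for Saa1 and Saa3 and 0.504 for Ltf and Lcn2, and no pair changed its side of the threshold.

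**Figure D4:**
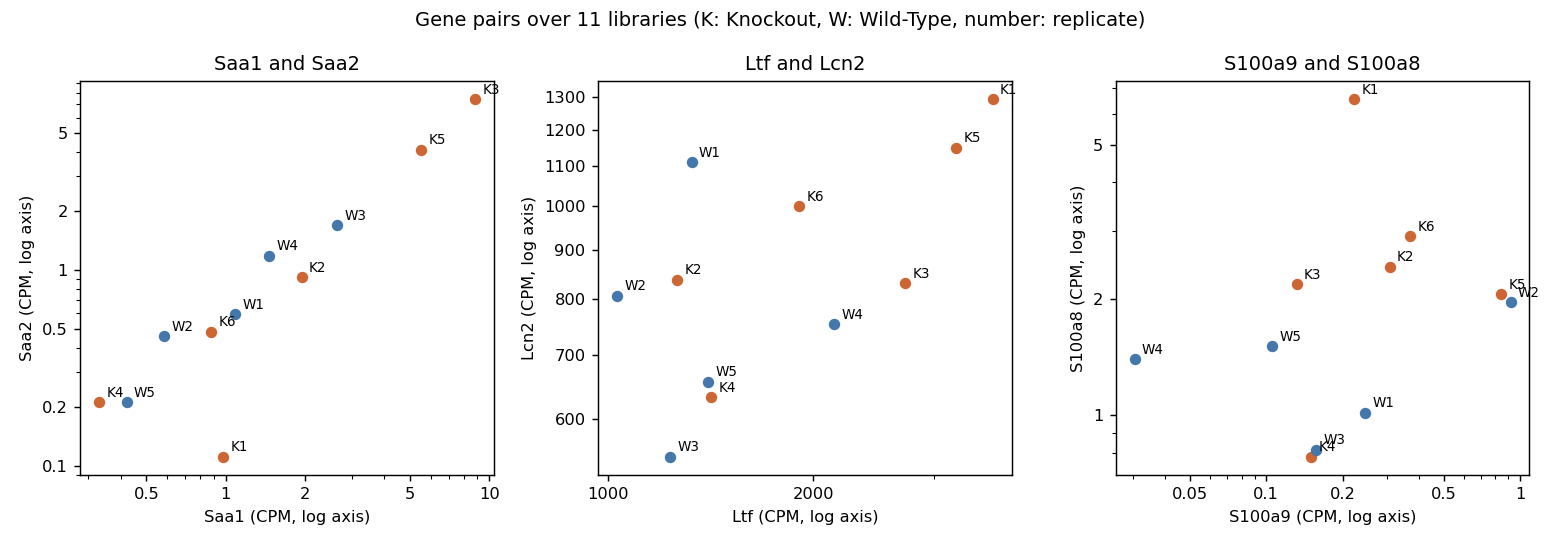
Levels of 3 gene pairs in each library, in CPM on log axes, with K for Knockout, W for Wild-Type and the replicate number. Saa1 and Saa2 lie along a line but for Knockout library 1, Ltf and Lcn2 are joint highest in Knockout libraries 1 and 5, and S100a8 and S100a9 are scattered.

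The tested genes whose levels were most like each of the 9 tested ones across the 11 libraries are given as a description, since the best of 12353 genes has a high r whatever its relation. For Ltf these were Arfip1 (r = 0.942), Kbtbd13 (0.889) and Ralgapa2 (0.889). For Lcn2 they included the interferon-induced gene Ifit1 (r = 0.926) and the acute-phase gene Lrg1 (0.910). For Cd14 they were Usp6nl (r = 0.966), Fhl1 (0.938) and the transcription factor Stat3 (0.922), which at 164 CPM was also highest in Knockout library 2. Saa1 and Saa2 shared the same 3 genes, Akap2 (r = 0.936 and 0.963), Ccdc85a (0.934 and 0.870) and Ccdc85c (0.844 and 0.854). For Lpo the closest was Cluap1 (r = 0.943), followed by Ftsj1 (0.911) and Zfp791 (0.903). For Lbp it was Msx1 (r = 0.920), followed by Ttll7 (0.907) and Hif1an (0.865). For Saa3 Bbc3 (r = 0.836), Ptpn21 (0.828) and Ret (0.819) came first, and for S100a8 Bag3 (0.911), Inka2 (0.906) and Tctex1d2 (0.885).

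Other antimicrobial proteins of milk and mucosa gave no called gene either. Of 19 listed 13 could be tested, 0 passed, 3 were above 0 and 10 below, with a median log2 fold change of -0.10. The smallest p was for Lyz1, a lysozyme, at 0.542 ± 0.160 CPM in Knockout (SD, n = 6), against 1.95 ± 1.70 CPM in Wild-Type (SD, n = 5) (log2 fold change -1.82 ± 0.60 SE, adjusted p in edgeR = 0.3). Its highest levels, 3.83, 3.68 and 1.46 CPM, were in Wild-Type libraries 5, 2 and 4, in which the B and T cell markers summed to 67.4, 48.6 and 15.8 CPM, against 1.89 and 3.96 CPM in Wild-Type libraries 1 and 3, and the part of these cells was not tested. Lyz1 is uncertain, since it has a near copy, Lyz2, with which reads may be confused. Over all lists 118 of 157 genes could be tested and 0 passed, and 21 had an unadjusted p under 0.05, against 12.4% of all genes.

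Markers of the gland's cell types were set beside these genes. The 8 adipocyte markers summed to between 1155 and 1694 CPM for Knockout and between 697 and 1019 CPM for Wild-Type, with no overlap. Of the 8, 7 were above 0 and 1 below, 4 had an unadjusted p under 0.05, 0 passed, and the median log2 fold change was 0.28. Cfd made up most of the sum: without it, a split made after the values were seen, the other 7 summed to between 350.2 and 529.6 CPM for Knockout and between 332 and 424 CPM for Wild-Type, which overlap. The smallest p in the list was that of Cfd, the adipocyte protease adipsin (log2 fold change 0.78 ± 0.18 SE, adjusted p in edgeR = 0.218). The 9 markers of secretory epithelium, which include milk protein genes, summed to between 340616 and 477505 CPM for Knockout and between 422708 and 593888 CPM for Wild-Type. Of the 9, 3 were above 0 and 6 below, 0 passed, and the median log2 fold change was -0.22. Krt8, a keratin of luminal cells above 0, had the smallest p (log2 fold change 0.48, adjusted p in edgeR = 0.396). The part of either cell type in the levels of the 10 genes was not tested.

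The 9 B and T cell markers summed to between 1.80 and 14.9 CPM for Knockout and between 1.89 and 67.4 CPM for Wild-Type, and were highest in Wild-Type libraries 5, 2 and 4 and Knockout library 1, with Cd79b, a subunit of the B cell receptor, having the smallest p (log2 fold change -2.92, adjusted p in edgeR = 0.313). Keratinocyte markers summed to between 48.8 and 81.5 CPM in Wild-Type, and Lor, the gene of loricrin, had the smallest p (log2 fold change 1.50, adjusted p in edgeR = 0.35). Of the 6 skeletal muscle markers Mb, the gene of myoglobin, had the smallest p (log2 fold change 0.58, adjusted p in edgeR = 0.457), and of the macrophage markers Itgam, an integrin subunit (log2 fold change -0.32, adjusted p in edgeR = 0.651). Knockout library 1, the highest in Ltf, Lcn2, Lbp and S100a8, was also the highest of its group in muscle and in B and T cell markers. It was the highest of all 11 libraries in adipocyte markers (1694 CPM) and macrophage markers (123 CPM) and the lowest in secretory epithelium markers (340616 CPM). The part of these in its values was not tested, and the values without it are given above for Ltf and S100a8. Without it the log2 fold change was 0.21 for Lcn2 and 0.10 for Lbp.

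**Figure D5:**
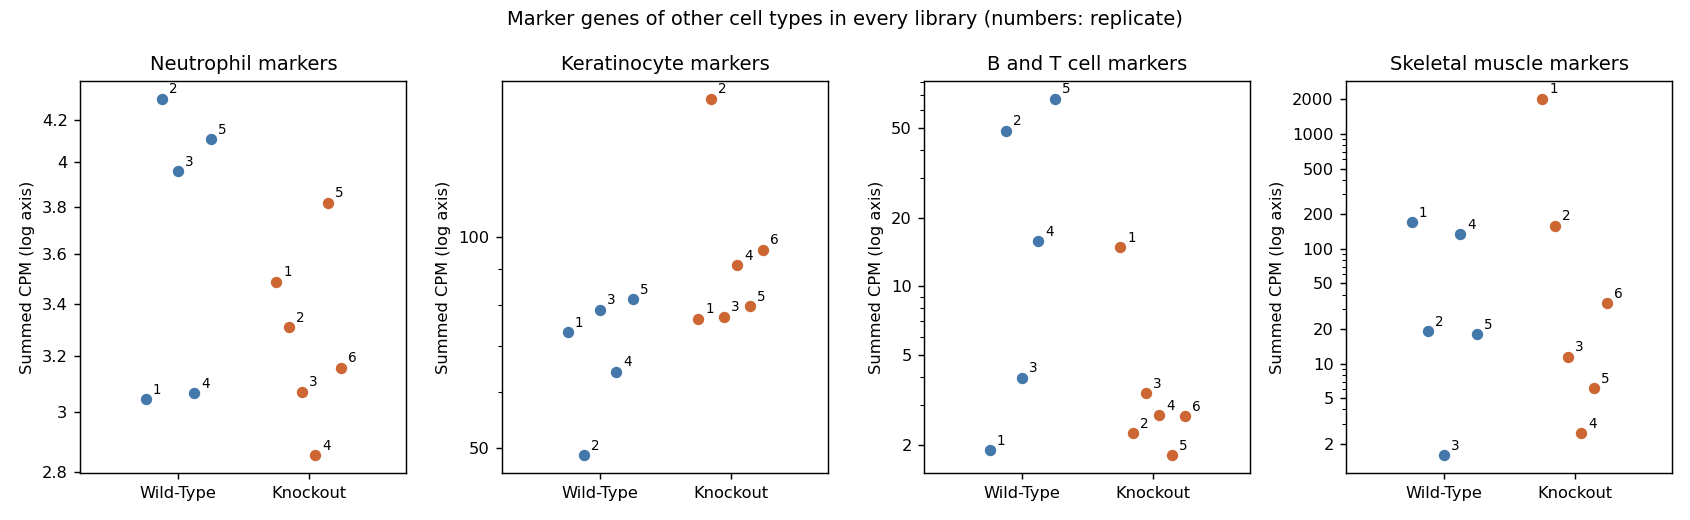
Summed CPM of neutrophil, keratinocyte, B and T cell and skeletal muscle markers in each library on log axes, Wild-Type blue and Knockout orange, numbered by replicate. Neutrophil markers stay between 2.86 and 4.30 CPM, while skeletal muscle markers reach 2020 CPM in Knockout library 1 and keratinocyte markers 158 CPM in Knockout library 2.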

How the data were processed

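Each of the 11 libraries came as a table of 58204 transcripts. Per the submitters' processing notes, Salmon 1.3.0, DESeq2 1.28.1 and GRCm38.p6 were used; index and options are not given in the sources used here. Per the file headers, the deposited tables give each transcript's length, TPM and estimated count. For 93.9% of 57318 transcripts the deposited length lies within 3 bases of the coding length in GENCODE M21, so counts cover mostly coding sequence. The authors also deposited a table of normalized gene values, used here as a signal on their scale.

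Estimated counts were summed per gene through GENCODE M21 and rounded; 752 unmatched transcripts, with at most 0.265% of a library's reads, were left out. Groups and replicate numbers came from sample titles. edgeR 4.0.16 (R 4.3.3) with filterByExpr, TMM and robust quasi-likelihood fits tested 12716 genes, with Benjamini-Hochberg adjustment. CPM for correlations had a prior count of 2, and permutation tests drew 100000 resamples (scipy 1.17.1). DESeq2 1.42.0, limma 3.58.1 on log2 of the authors' deposited signal + 1, a length offset, no filter, other scalings, a replicate block and leaving out each library were alternatives. A count of 0 was taken to allow 3 counts. The edgeR fit was also run on simulated counts, with the outcome not reported here. The labels do not say that each library is a separate animal, so p-values measure only the spread between these libraries, which may be technical. RefSeq promoter windows were matched by symbol for 8 of the 10 genes, with none for Cd14 and Lbp.

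All 10 genes, the gene with the smallest p of each list, every list gene past the threshold, 5 neutrophil genes and the 3 genes most correlated with each tested gene were to be named, and 1 of the correlated genes is not reported here. The genes and lists were chosen with earlier results of these data known.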

Additional observations from a re-analysis of the deposited data

Results flagged for a closer look

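The highest or lowest value was compared with the rest of its group by Dixon's criterion at 95%. This was done for each gene, for the sum of each marker or pathway list, and for the share of reads in the 10 genes. Of 48 sets of values 7 stood out, where chance gives about 1 in 20, or 2.4, for independent sets of normally distributed values. Neither condition was checked for these CPM, so the excess over 2.4 is not a test. Cd14 was 78.3 CPM in Knockout library 2, against 32.6 to 47.0 CPM in the other 5 Knockout libraries. S100a8 was 6.57 CPM in Knockout library 1, against 0.782 to 2.90 CPM in the others. S100a9 was 0.844 CPM in Knockout library 5, against 0.132 to 0.370 CPM, and 0.919 CPM in Wild-Type library 2, against 0.0304 to 0.245 CPM in the other Wild-Type libraries. The S100a9 values rest on at most 23 reads. Summed B and T cell markers were 14.9 CPM in Knockout library 1, against 1.80 to 3.37 CPM in the others, and skeletal muscle markers were 2020 CPM there, against 2.50 to 158 CPM. Summed keratinocyte markers were 158 CPM in Knockout library 2, against 76.4 to 96.0 CPM. Both libraries that stood out in a marker sum also stood out in 1 of the 10 genes. Without Knockout library 2 the log2 fold change of Cd14 was 0.14, and without Knockout library 1 that of S100a8 was 0.64.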

How the results depend on the processing

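The number of genes called was 7 over all genes, 146 with DESeq2, 0 with a replicate block and between 0 and 28 with 1 library left out (0 without Knockout library 3 or 6, 28 without Knockout library 2). None of the 9 tested genes was called in any setting run, nor S100a9 where it passed the filter (without Wild-Type 1, 3, 4 or 5) or none was used. Replicate numbers did not pair the libraries. With each gene's genotype mean taken off, same-numbered libraries correlated between -0.22 and 0.19, and none best with its own number. Before that step, log2 CPM correlated between 0.940 and 0.979 among the libraries. The block changed no call among the 9 tested genes. Leaving out 1 library turned the direction of Lpo (0.0202 without Wild-Type 2) and of Saa3 (0.02 without Knockout 1, 0.24 without 4, 0.01 without 5, 0.09 without 6; 0.33 without Wild-Type 1, 0.00289 without 2, 0.06 without 3). The ranges with 1 library left out were 0.57 to 0.93 for Ltf, 0.20 to 0.47 for Lcn2, -0.23 to 0.02 for Lpo, 0.14 to 0.50 for Cd14, 0.04 to 0.25 for Lbp, 0.61 to 1.76 for Saa1, 0.44 to 1.81 for Saa2, -0.34 to 0.33 for Saa3 and 0.64 to 1.28 for S100a8. With TPM in place of CPM, r rose past the threshold for Ltf and Lcn2 (0.771, permutation test, adjusted p = 0.0125) and for Cd14 and Lbp (0.778, permutation test, adjusted p = 0.0125) and turned to 0.330 for Ltf and Lpo. Without the 2 outermost libraries r was 0.0207 for Ltf and Lpo, 0.790 for Cd14 and Lbp and 0.716 for Saa1 and Saa3. The cause was not tested. Saa3 and S100a9 had fewer than 30 reads in every library.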

Other observations

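In the 250 bases upstream of the RefSeq start, searched on both strands, the C/EBP motif TTGCNNAA occurred in 6 of the 8 genes with a window (Ltf, Lcn2, Saa1, Saa2, Saa3 and S100a9), against 9.56% of 32851 windows. TATAAA occurred in 1 of the 8, S100a8, against 12.4%, the STAT motif TTCNNNGAA in 0 against 7.02%, and the NF-kB motif in 0 against 7.25%. A match is a description of letters in these windows, and Saa1 and Saa2 count as near copies here. The remaining transcript shares were narrow for Lbp, with Lbp-201 taking 95.4% to 98.4% of its reads, and wide for Saa2, with Saa2-203 taking 62.8% to 100% of few reads.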
